A study of Mus musculus with 8 samples.

Results

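The genes described here are 9 components of the calcium signal that activates the egg: the calmodulin genes Calm2 and Calm3, the kinase gene Camk2g, the phosphatase gene Ppp3ca, the calcium release channel gene Itpr1, the pump genes Atp2a2 and Atp2b1, and the entry channel genes Trpm7 and Cacna1h. They are 9 of the 37224 genes in the count table, listed by name with the knockout against control comparison of these libraries already known. Their differences between the groups are therefore given as descriptions, with no p, and nothing is supported with them. The study sequenced RNA from 8 single MII oocytes (the arrested, ovulated egg) of superovulated mice. The knockout group is 4 oocytes from Setd1bGdf9cKO females, in which Setd1b, a gene for a histone H3 lysine 4 methyltransferase, is conditionally deleted under a name that refers to Gdf9, a gene of growing oocytes. The control group is 4 oocytes from control females, for which the labels give no allele. The age of the females, the deleted exons and whether oocytes of a group share a female are not given in the sources used here, so errors measure the spread between these oocytes. The labels name no fertilisation or activation treatment, and the values are transcript levels of the arrested egg. The libraries were primed on poly(A) tails, so the amount of a transcript and the length of its tail cannot be told apart.

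In the arrested mammalian egg, sperm entry starts a series of calcium rises. The sperm's phospholipase makes inositol trisphosphate (IP3), which opens the IP3 receptor of the endoplasmic reticulum, and each rise is read by calmodulin, a small calcium-binding protein that switches on calcium/calmodulin-dependent kinase II. That kinase marks the meiotic inhibitor encoded by Fbxo43 for removal and so releases the arrest, while pumps clear calcium from the cytoplasm and channels of the surface refill the stores.

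Totals ran from 9488899 to 13519404 assigned counts per library. Levels are given as CPM, counts scaled to a common library size by total and by TMM composition factors. Between genes they are given as RPKM, which is CPM per kilobase of the deposited gene length. The factors split by group, at 1.07 to 1.22 in knockout and 0.799 to 0.946 in control libraries. Genes with at least 10 counts numbered 11190 to 12153 in knockout and 9913 to 10714 in control libraries. The cause of these differences in composition was not tested. Of 11 oocyte markers, 11 averaged 1 CPM or more, with summed levels of 9996 to 14491 CPM in knockout libraries and 12726 to 15454 CPM in control libraries. Single markers differed in both directions. Means were higher in knockout for Zp1, Zp2 (826 against 102 CPM in control), Zp3, Nlrp5 (1128 against 356) and Figla. They were lower for Gdf9 (3591 against 4863), Bmp15 (2195 against 2267), Oosp1 (1280 against 3451), Dazl, Ooep and Mos. Of 20 cumulus and granulosa markers, 5 reached a mean of 1 CPM. They were Esr2 (63.2 CPM in knockout and 110 CPM in control oocytes), Cyp19a1 (49.3 and 88.8), Kitl (21.5 and 28.3), Nr5a2 (17.7 and 18.1) and Star (1.07 and 1.45). Another 8 had no count in any library (Amh, Amhr2, Lhcgr, Foxl2, Inha, Tnfaip6, Ptx3 and Fst). The sum of the 20 was 134 to 198 CPM in knockout libraries and 241 to 257 CPM in control libraries. The part of these markers in the results was not tested. Setd1b was at 2.97 to 5.06 CPM in the knockout libraries, against 9.24 to 12.8 CPM in control (log2 fold change -1.44 ± 0.41, SE, adjusted p = 0.0221 in edgeR's quasi-likelihood test). That call was lost in several settings, among them without knockout replicate 3 (-1.33) or control replicate 2 (-1.36), and when libraries were scaled by total alone (-1.04).

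Calm2 was at a much higher CPM in knockout oocytes. The gene (ENSMUSG00000036438, chromosome 17, 87433412 to 87446935, minus strand, mm10) is one of the mouse genes that each encode calmodulin. It was at 650, 804, 816 and 560 CPM in knockout replicates 1 to 4. In control replicates 1 to 4 it was at 39.5, 26.9, 28.8 and 47.3 CPM. The level, which is relative to the library and not an amount per oocyte, was higher in every knockout than in every control library. The lowest knockout library was far above the highest control library. The means were 708 ± 124 CPM (SD, n = 4) and 35.6 ± 9.55 CPM, a ratio of 19.9 and a log2 fold change of 4.31 ± 0.24 (SE). Among the 11066 tested genes its RPKM level stood at percentile 80.1 in control and at percentile 99.4 in knockout oocytes.

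Calm3 differed by a similar ratio at a much lower level. The gene (ENSMUSG00000019370, chromosome 7, 16915379 to 16924114, minus strand) encodes the same protein. It was at 15.9, 9.59, 8.28 and 11.7 CPM in knockout replicates 1 to 4. It was at 0.11, 0.32, 0.248 and 1.6 CPM in control replicates 1 to 4, where the 4 libraries together held 24 counts. The groups did not overlap, and control replicate 4, with 16 of the 24 counts, stood above the other control libraries. The log2 fold change was 4.30 ± 0.77 (SE, n = 4 per group), and 5.54 without control replicate 4, so its size rests on few counts.

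The mRNAs of Calm2 and Calm3 encode the same amino acids with different codons, which shows how far a read can tell them apart. The first 75 coding bases, the length of a read in this study, are printed 5′ to 3′ from the principal GENCODE M21 transcripts, with introns left out and capitals at the 10 positions where the 2 genes differ. The coding regions span chr17:87434030-87446795 (Calm2, minus strand) and chr7:16916951-16923843 (Calm3, minus strand) in GRCm38:
Calm2: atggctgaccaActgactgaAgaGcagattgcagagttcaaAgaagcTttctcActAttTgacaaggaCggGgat
Calm3: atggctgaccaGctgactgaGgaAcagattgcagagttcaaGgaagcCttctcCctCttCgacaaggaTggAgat
Over the whole coding region of 447 bases, Calm2 and Calm3 differed at 78 bases, of which 74 were at the third base of a codon, and at 0 of 149 amino acids. The longest run of bases that the 2 transcripts shared was 17, well short of a read.

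Other copies were therefore looked for in the annotation. Of the distinct 75-base words in Calm2 transcripts 2.88% also occurred in another annotated gene, most of them in Gm7308, a processed pseudogene; for Calm3 the share was 1.13%. Gm7308, chosen after its values were seen, was at 20.7 to 38.7 CPM in the knockout and 1.6 to 3.64 CPM in the control libraries. Its counts came to 3.7% to 4.81% of those of Calm2 in the knockout and 5.73% to 9.22% in the control libraries. How many reads of this copy were counted for Calm2, or the reverse, was not tested.

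Camk2g encodes the gamma subunit of calcium/calmodulin-dependent kinase II, the form on which release from arrest depends in the mouse egg. It lies on chromosome 14 (20734875 to 20794088, minus strand). It was at 399, 369, 409 and 510 CPM in the knockout oocytes (replicates 1 to 4), and at 145, 188, 165 and 165 CPM in the control oocytes (replicates 1 to 4). The groups did not overlap, and the control libraries were the most alike for this gene, with a coefficient of variation of 10.6%. The means were 422 ± 61.3 and 165 ± 17.5 CPM (SD, n = 4), a ratio of 2.55 and a log2 fold change of 1.35 ± 0.16 (SE). The genes for the other subunits were scarce: Camk2a had 1 count in knockout libraries and 1 in control libraries, Camk2b had 1 and 0, and Camk2d had 14 and 79.

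Ppp3ca encodes a catalytic subunit of calcineurin, the calmodulin-activated phosphatase. The gene is on chromosome 3 (136670124 to 136937727, plus strand). It was at 51.5, 37.7, 48.6 and 51.2 CPM in the knockout oocytes (replicates 1 to 4), and at 35.3, 29.1, 45.1 and 22.0 CPM in the control oocytes (replicates 1 to 4). Control replicate 3 lay inside the knockout range, and the log2 fold change was 0.52 ± 0.26 (SE, n = 4 per group). When libraries were scaled by total alone, it was 0.90.

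Itpr1 encodes the IP3 receptor through which the egg releases stored calcium. It lies on chromosome 6 (108213118 to 108551109, plus strand). The gene was at 110, 119, 162 and 146 CPM in the knockout oocytes (replicates 1 to 4), and at 232, 200, 222 and 316 CPM in the control oocytes (replicates 1 to 4). Each knockout library was below each control library, with control replicate 4 the highest. The means were 134 ± 24.0 and 242 ± 51.0 CPM (SD, n = 4), a ratio of control over knockout of 1.80 and a log2 fold change of -0.85 ± 0.20 (SE). When libraries were scaled by total alone, the log2 fold change was -0.45.

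Among the pumps that clear calcium, the groups overlapped for Atp2a2 and not for Atp2b1. Atp2a2 encodes the pump that returns calcium to the endoplasmic reticulum (chromosome 5, 122442702 to 122502225, minus strand). It was at 540, 614, 644 and 666 CPM in the knockout oocytes (replicates 1 to 4), and at 796, 768, 828 and 572 CPM in the control oocytes (replicates 1 to 4). Control replicate 4 fell among the knockout libraries and the other 3 control libraries lay above them. The log2 fold change was -0.27 ± 0.16 (SE, n = 4 per group). Its sign turned when libraries were scaled by total alone (0.12), and after removal of a gene length trend it was -0.49.

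Atp2b1 encodes the main calcium pump of the plasma membrane (chromosome 10, 98915152 to 99026143, plus strand). It was at 150, 165, 212 and 127 CPM in the knockout oocytes (replicates 1 to 4), and at 282, 283, 219 and 230 CPM in the control oocytes (replicates 1 to 4). The groups did not overlap, but knockout replicate 3 and control replicate 3 were close. The means were 163 ± 36.1 and 254 ± 33.8 CPM (SD, n = 4), with a log2 fold change of -0.63 ± 0.19 (SE). It was -0.25 when libraries were scaled by total alone, and from -0.79 to -0.53 with each library left out in turn.

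Both channels for calcium entry were low. Trpm7, which encodes a channel with a kinase domain that carries magnesium and calcium (chromosome 2, 126791565 to 126876230, minus strand), was at 34.5, 25.7, 25.9 and 40.4 CPM in the knockout oocytes (replicates 1 to 4), and at 17.9, 25.3, 25.5 and 46.2 CPM in the control oocytes (replicates 1 to 4). The groups overlapped throughout, and control replicates 1 and 4 were the lowest and the highest of all libraries. The log2 fold change was 0.14 ± 0.32 (SE), with a 95% interval of -0.48 to 0.76, and -0.04 without control replicate 1. Cacna1h, the T-type calcium channel of the egg (chromosome 17, 25374285 to 25433783, minus strand), was at 13.8, 8.0, 7.56 and 12.3 CPM in the knockout oocytes (replicates 1 to 4), and at 2.65, 10, 9.57 and 6.31 CPM in the control oocytes (replicates 1 to 4). Knockout replicates 1 and 4 were the highest and control replicate 1 the lowest, while the others overlapped. The log2 fold change was 0.54 ± 0.48 (SE), with a 95% interval of -0.39 to 1.47, and 158 of its 9763 exon bases overlap Tpsg1 on the other strand, which these unstranded counts cannot separate.

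**Figure D1:**
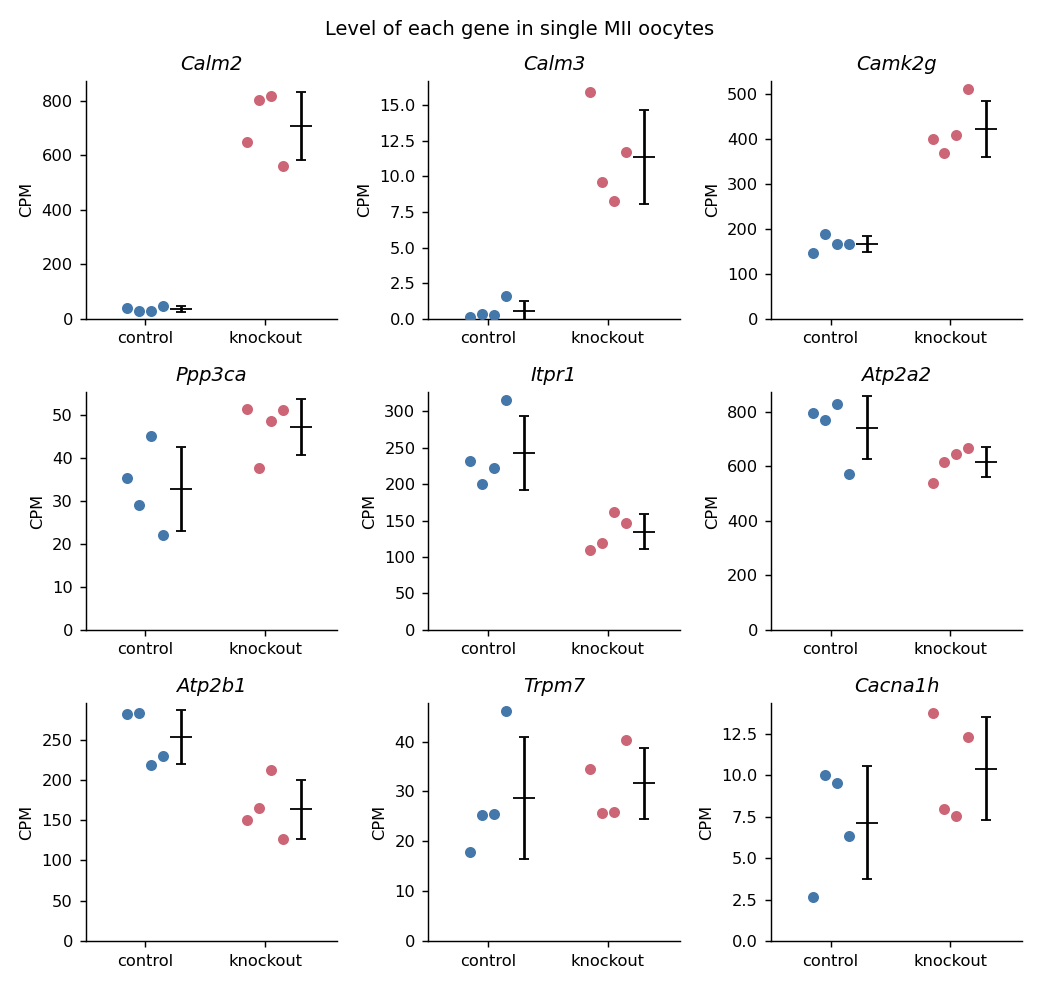
CPM (y axis, from 0, scaled per gene) of each of the 9 genes in the 4 control (blue) and 4 knockout (red) oocytes, in the order of replicate 1 to 4; black marks are the mean and SD. The groups are apart for Calm2, Calm3, Camk2g, Itpr1 and Atp2b1 and overlap for Ppp3ca, Atp2a2, Trpm7 and Cacna1h.

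Set side by side, 9 of 9 genes passed the filter on low counts, against 11066 of the 37224 genes in the count table. Calm3, with 1, 4, 3 and 16 counts in control replicates 1 to 4, passed through its knockout libraries. The 4 libraries of each group did not overlap in 5 of the 9 (Calm2, Calm3, Camk2g, Itpr1 and Atp2b1), against 31.3% of all tested genes. The same 5 passed the adjusted p threshold of 0.05 when all genes were fitted with edgeR, 3 higher and 2 lower in knockout oocytes. Over all 11066 tested genes 25.8% were past it, 13.6% higher and 12.2% lower (1503 and 1347 genes). When libraries were scaled by total alone, the split was 2382 higher and 504 lower, and with a gene length trend removed 1028 higher and 2332 lower. The 9 genes were chosen from this contrast, so nothing is read from their count. The count also moved with the setting: Atp2b1 was not among those past the threshold without knockout replicate 1, 2 or 4 or control replicate 1 or 2, and neither Itpr1 nor Atp2b1 was when libraries were scaled by total alone, where Ppp3ca was. After removal of the length trend Atp2a2 was among them too. Their median log2 fold change was 0.52, beside 0.10 for all tested genes. The authors' deposited table, which lists genes with an adjusted p up to 0.009996, held the same 5, with shrunken log2 fold changes of 4.17 for Calm2, 3.54 for Calm3, 1.29 for Camk2g, -0.66 for Atp2b1 and -0.88 for Itpr1.

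The order of the levels changed most for the calmodulins. In control oocytes the mean RPKM fell from Atp2a2 (140) through Camk2g (44.7), Atp2b1 (35.6), Itpr1 (24.6), Calm2 (24.3), Ppp3ca (5.96), Trpm7 (2.54) and Cacna1h (0.731) to Calm3 (0.235). Ranges overlapped between neighbours from Camk2g to Calm2, between Ppp3ca and Trpm7, and between Cacna1h and Calm3. In knockout oocytes Calm2 was first (482), and Atp2a2 (116) and Camk2g (114) overlapped. Atp2b1 (22.9), Itpr1 (13.6) and Ppp3ca (8.57) followed without overlap, Calm3 (4.69) overlapped Trpm7 (2.79), and Cacna1h (1.07) was last. Cacna1h stayed at a similar place among all tested genes, at percentile 18.7 in control and 17.9 in knockout oocytes, whereas Calm3 was at percentiles 5.79 and 48.2. Calm3 was among the tested genes through its knockout libraries, so its low place in control oocytes is described only.

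Among the genes whose groups did not overlap, those higher in knockout oocytes were shorter than those lower. Calm2 (1467 bases), Calm3 (2423) and Camk2g (3703) are the shortest of the 9, and Itpr1 (9848) and Atp2b1 (7130) are among the longest. The genes whose groups overlapped did not follow this order. Trpm7 (11315) and Cacna1h (9763) are also among the longest, with log2 fold changes of 0.14 and 0.54. Atp2a2 (5293) was at -0.27 and Ppp3ca (5512) at 0.52. Across all tested genes the median log2 fold change was 0.33 in the 2767 shortest genes (up to 2075 bases), 0.22 and 0.07 in the next 2 length groups and -0.11 in the genes from 5704 bases upwards. After removal of the length trend, which moved the median of all tested genes to -0.22, the differences from that median were 3.97 for Calm2, 3.97 for Calm3, 1.22 for Camk2g, -0.68 for Itpr1 and -0.54 for Atp2b1. Without that step the same differences from the median of 0.10 were 4.21, 4.20, 1.25, -0.95 and -0.73. When libraries were scaled by total alone, the median of all tested genes was 0.49 and the differences from it were 4.24, 4.26, 1.24, -0.94 and -0.74. For the genes whose groups overlapped, removal of the length trend gave differences from the median of 0.76 for Cacna1h, 0.54 for Ppp3ca, 0.35 for Trpm7 and -0.27 for Atp2a2. Without that step they were 0.44, 0.42, 0.04 and -0.37.

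**Figure D2:**
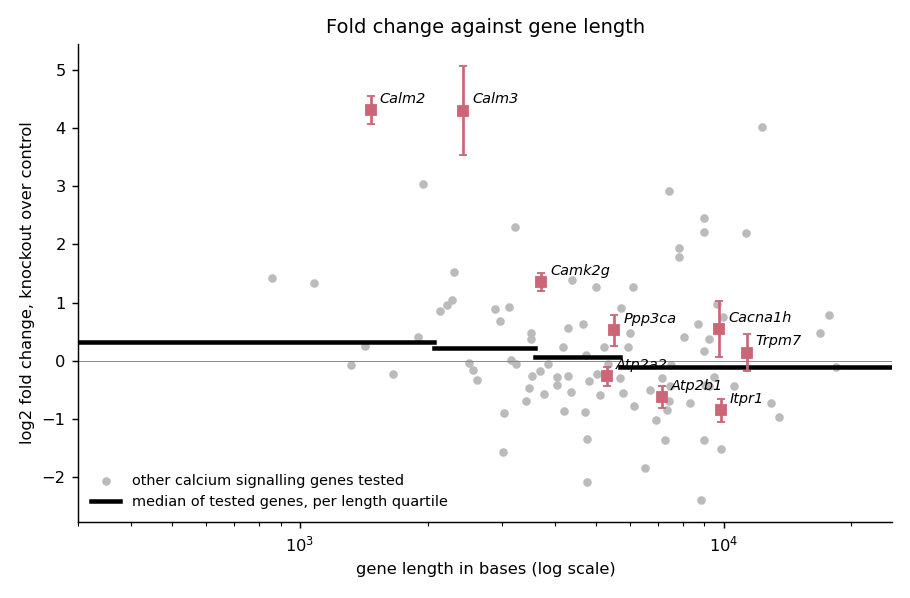
Log2 fold change of knockout over control (y axis) against gene length in bases (x axis, log scale) for the 9 genes (red squares, bars are SE) and the 91 other calcium signalling genes tested (grey). Black lines are medians of all tested genes in 4 groups by length, the outer ones drawn only to the edge of the plot, and fall from 0.33 to -0.11, and the calmodulin genes lie far above them.

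RefSeq's promoter table for GRCm38.p6 held Calm3, Atp2b1 and Trpm7 and had no entry for Calm2, Camk2g, Itpr1, Atp2a2, Ppp3ca or Cacna1h. The 250 bases before the RefSeq start are shown because the enzyme that was deleted methylates histones at promoters, and because the 3 genes were higher (Calm3), lower (Atp2b1) and overlapping (Trpm7) in knockout oocytes. Each is printed 5′ to 3′ on the strand of its gene, with CG dinucleotides in capitals. They are chr7:16924033-16924282 (minus strand), chr10:98914902-98915151 (plus strand) and chr2:126876262-126876511 (minus strand). The RefSeq start of Calm3 lies 82 bases inside the gene as counted here, so part of its window overlaps that gene's first bases:
Calm3: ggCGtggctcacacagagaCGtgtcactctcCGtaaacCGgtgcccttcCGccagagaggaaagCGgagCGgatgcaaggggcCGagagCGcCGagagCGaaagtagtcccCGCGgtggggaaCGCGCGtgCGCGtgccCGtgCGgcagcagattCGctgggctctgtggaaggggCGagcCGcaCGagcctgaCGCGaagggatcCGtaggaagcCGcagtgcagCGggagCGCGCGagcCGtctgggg
Atp2b1: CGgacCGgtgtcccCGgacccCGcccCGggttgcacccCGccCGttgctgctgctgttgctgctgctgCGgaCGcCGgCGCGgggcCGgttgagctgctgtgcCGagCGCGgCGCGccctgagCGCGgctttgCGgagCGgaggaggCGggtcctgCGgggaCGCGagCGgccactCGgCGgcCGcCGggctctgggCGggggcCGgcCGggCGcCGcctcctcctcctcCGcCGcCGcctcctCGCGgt
Trpm7: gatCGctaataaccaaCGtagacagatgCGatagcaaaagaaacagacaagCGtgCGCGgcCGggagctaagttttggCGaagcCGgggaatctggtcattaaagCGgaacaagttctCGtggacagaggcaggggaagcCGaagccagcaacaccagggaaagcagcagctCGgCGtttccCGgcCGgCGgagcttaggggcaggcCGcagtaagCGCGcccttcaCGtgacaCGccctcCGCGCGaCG
The 3 windows held 33, 41 and 26 CG dinucleotides in that order, against a median of 6 over 32851 promoters cut to the same length, and 96%, 98.9% and 90.4% of those promoters held fewer. The letters TATAAA and CCAAT, searched on both strands, were in none of the 3 windows, against 12.4% and 33.8% of all promoters. GGGCGG was in that of Atp2b1, against 32.7% of all promoters. All 3 windows were rich in CG against this background, which was all promoters and not only those of genes detected in oocytes. Whether CG content goes with the difference between the groups was not tested.

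The genes most alike in pattern were found by Pearson's r of log2(CPM + 1) over the 8 libraries among 6499 genes averaging 10 CPM or more, as a description that contains the group difference. For Calm2 they were A430005L14Rik (r = 0.996) and Isca1 (0.995), for Calm3 Trmt1l (0.995) and Phc1 (0.995), and for Camk2g Fbxo38 (0.989) and Hacd2 (0.988). Pearson's r does not compare the size of a difference. In that order the log2 fold changes were 1.82 and 3.5 beside Calm2 at 4.31, and 1.83 and 1.69 beside Calm3 at 4.30. They were 2.03 and 0.59 beside Camk2g at 1.35. Itpr1 was most like Spast (0.994) and Ncoa1 (0.991), and Atp2b1 most like Pop1 (0.965) and Tmem30a (0.961). Here the log2 fold changes were -0.85 and -0.81 beside Itpr1 at -0.85, and -0.51 and -0.52 beside Atp2b1 at -0.63. For genes whose groups overlapped, the pairs were Atp2a2 with Gm10466 (0.956) and Fyn (0.95), Ppp3ca with Trappc12 (0.976) and Utp20 (0.948), Trpm7 with Slc37a3 (0.941) and Gcm2 (0.908), and Cacna1h with Ubr4 (0.976) and Gpat4 (0.971).

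Other genes of calcium signalling, from 9 lists, moved in both directions. Among the 91 that could be tested there were 8 that rose and 9 that fell (adjusted p under 0.05, edgeR's quasi-likelihood test), 18.7% in all against 25.8% of all tested genes, and their median log2 fold change was -0.06. Of the genes written into these lists 87 did not pass the count filter, and 33 of those had no count in any library, among them Plcz1, which encodes the phospholipase brought by the sperm. When libraries were scaled by total alone, the calls of Iqgap2 (-0.16), Rcan3 (-0.22) and Myh9 (-0.32) were lost.

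Among genes that release or bind calcium in the endoplasmic reticulum, 2 rose and 2 fell of 14. Itpr2, another IP3 receptor gene, was at 44.2 RPKM in control and 22.5 RPKM in knockout oocytes, where Itpr1 was at 24.6 and 13.6 RPKM. It fell from 596 ± 174 to 303 ± 18.8 CPM (SD, n = 4; log2 fold change -0.97 ± 0.21, SE, adjusted p = 0.00623 by edgeR). Rcn2, a calcium-binding protein of the secretory pathway, fell from 332 ± 70.5 to 131 ± 22.8 CPM (-1.34 ± 0.20). Sdf4, a calcium-binding protein of the Golgi, rose from 19.1 ± 7.03 to 45.7 ± 4.24 CPM (1.26 ± 0.30), and Calr, the calcium buffer calreticulin and named after its values were seen, rose by 0.89. In IP3 metabolism 1 of 12 rose: Pi4ka, a lipid kinase upstream of the lipid from which IP3 is made, went from 4.24 CPM to 19.4 CPM (log2 fold change 2.19 ± 0.44). Plcg1 and Pip5k1c were at 1.79 and 0.90 and did not pass, although Pip5k1c did without control replicate 2 (1.38).

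Of 4 other pumps and exchangers, Atp2c1, the calcium pump of the Golgi, fell from 1255 ± 308 to 487 ± 105 CPM (SD, n = 4; log2 fold change -1.37 ± 0.22, SE, adjusted p = 0.00125 by edgeR). Atp2c2 and Atp2b4 did not pass, at 2.29 and -0.42. Of 17 other entry channel genes, Cacnb2, a regulatory subunit of voltage-gated channels, rose from 1.3 ± 0.857 to 7.19 ± 1.39 CPM. Cacna1i and Cacnb4 did not pass, at -1.52 and -1.37, although Cacnb4 did without control replicate 2 (-1.77). Of 11 genes for mitochondrial uptake, the pore gene Mcu fell from 821 ± 72.1 to 404 ± 47.2 CPM (-1.02 ± 0.15), while Micu2, a gatekeeper of that pore, rose from 16.2 ± 4.39 to 46.5 ± 11.9 CPM (1.52 ± 0.30). The pore's small subunit gene Smdt1 was at 1.33 and did not pass, though it did with DESeq2 (1.3) and without control replicate 1 (1.81).

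Downstream of calmodulin, the calmodulin-binding scaffold gene Strn fell from 4955 ± 1654 to 942 ± 319 CPM (SD, n = 4; log2 fold change -2.40 ± 0.29, SE, adjusted p = 0.000239 by edgeR). In its list of 7 tested genes Strn4, a relative of Strn, rose (1.93, lost without knockout replicate 1 at 1.67) and Iqgap2, another scaffold, fell (-0.56, lost without knockout replicate 1 or 2 at -0.47 and -0.52 and without control replicate 1 or 4 at -0.55 and -0.50). Of 5 other calmodulin-dependent kinase genes Camk4 rose from 0.544 ± 0.852 to 9.24 ± 4.07 CPM, with 26 counts in the control libraries and a log2 fold change of 4.02, or 6.09 without control replicate 3. Camk1d and Eef2k did not pass, at -0.69 and -0.29.

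Of 10 other genes of calcineurin and its targets, Ppp3cc, another catalytic subunit, rose with a log2 fold change of 3.04 and only 14 counts in the control libraries. That call was lost without knockout replicate 1 (3.00), 2 (2.86) or 4 (3.06) or control replicate 2 (2.79), 3 (2.71) or 4 (2.85), and was 4.24 without control replicate 1. With no count filter it was lost too (3.03). Rcan3, a regulator of calcineurin, fell (-0.59), and lost the call without knockout replicate 1 (-0.58), 2 (-0.50) or 3 (-0.62) or control replicate 2 (-0.55), 3 (-0.53) or 4 (-0.61). The call of Rcan3 was also lost with no count filter (-0.6) and with at least 10 CPM required (-0.47). Nfatc1, a transcription factor that calcineurin activates, was at 2.91 and did not pass, though it did with no count filter (2.89) and without control replicate 3 (3.64). Ppp3r1, the regulatory subunit, was named after its values were seen and was at 140 ± 7.07 CPM in knockout and 145 ± 23.2 CPM in control oocytes (SD, n = 4).

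Among 11 genes of protein kinase C and of the response to the calcium rise, 0 rose and 2 fell. Wee2, the oocyte kinase that inhibits Cdk1 and is a target of calcium/calmodulin-dependent kinase II, fell from 1293 ± 167 to 692 ± 149 CPM (SD, n = 4; log2 fold change -0.90 ± 0.18, SE, adjusted p = 0.00457 by edgeR). Myh9, a non-muscle myosin, fell by 0.72, and that call was lost without knockout replicate 1 (-0.67), 2 (-0.68) or 3 (-0.69) or control replicate 3 (-0.66) or 4 (-0.58). With at least 10 CPM required, the call of Myh9 was lost as well (-0.59). Prkcb, a calcium-dependent protein kinase C, did not pass, at -2.08, though it did with DESeq2 (-2.12) and without control replicate 2 (-2.46). Fbxo43, the meiotic inhibitor that Camk2g acts on, was named after its values were seen and was at -0.41 ± 0.16 (SE), which did not pass.

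**Figure D3:**
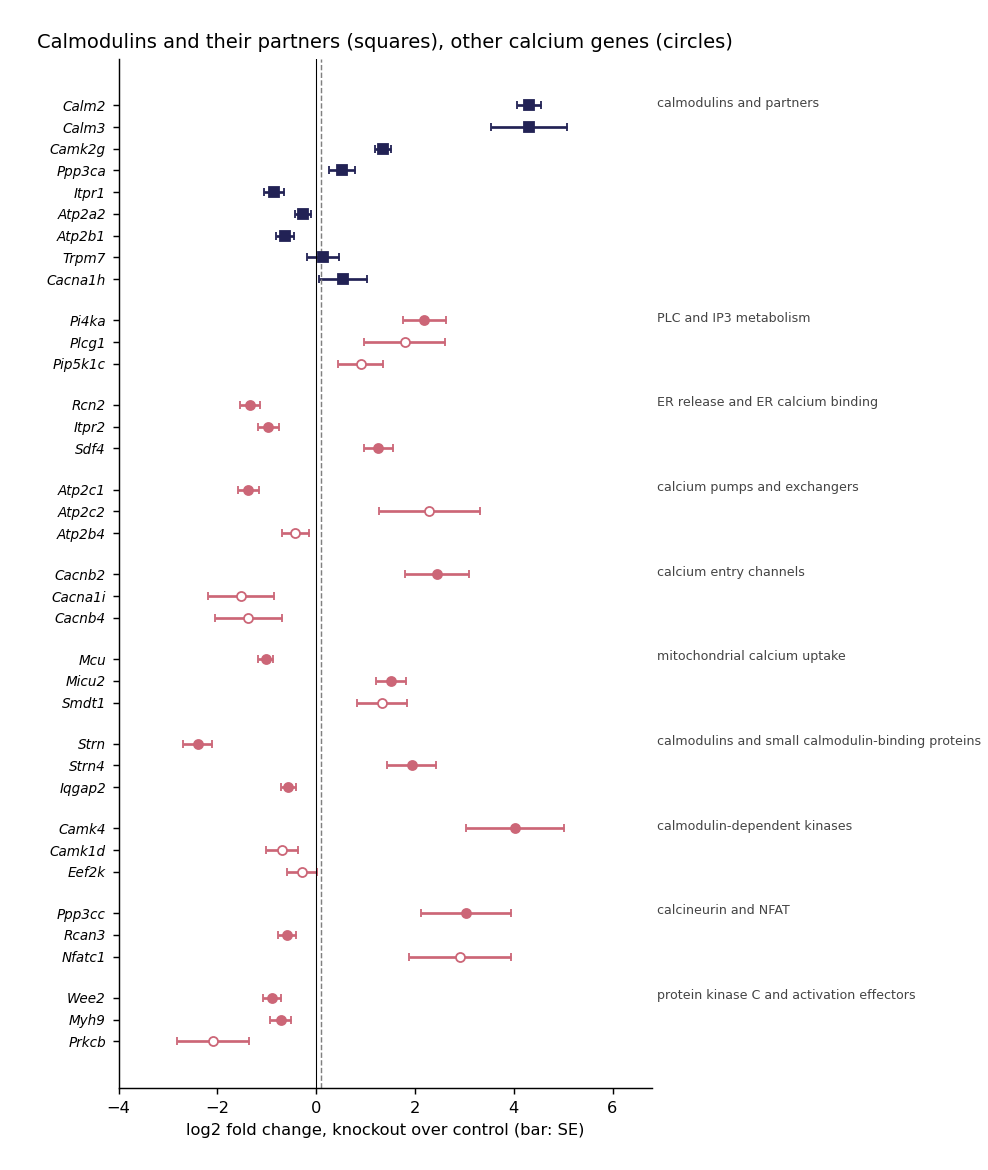
Log2 fold change of knockout over control with SE (x axis) for the 9 genes (squares) and up to 3 genes per list with the smallest p (circles, filled where the adjusted p was under 0.05); the dashed line is the median of all tested genes, 0.10. The calmodulin genes lie at 4.31 and 4.30. The circles lie above the line for IP3 metabolism, below it for protein kinase C and activation effectors, and on both sides for each other list.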

How the data were processed

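Per the labels' protocols, single oocytes were amplified with the SMARTer Ultra Low kit and sequenced as single 75-base reads. The deposited values are whole-number counts per gene, made by the authors with featureCounts 1.4.4 on Ensembl release 69 genes without strand and with a mapping quality of at least 1, per the file headers; GSNAP, mm10 and DESeq2 1.3.79 are named in the submitters' processing notes. The authors' deposited table gives shrunken log2 fold changes and adjusted p-values.

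Counts were fitted with edgeR 4.0.16 in R 4.3.3 (TMM, default count filter, quasi-likelihood test, genotype only). P-values were adjusted over 11066 genes by Benjamini and Hochberg with a threshold of 0.05. SE is the log2 fold change over the square root of F, and 95% intervals use the normal approximation. A total of 3 counts in a library was worth 0.225 to 0.331 CPM. The 9 genes and the lists were chosen with earlier results of these data known. Named genes of each list are the 3 with the smallest p. Alternatives were size factors, totals only, other filters, DESeq2 1.42.0, a length trend, a replicate block and leaving out each library. A planned result is not reported here. Simulated counts with known changes were used to check the fitting. Among the identifiers 1765 had no symbol.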

Additional observations from a re-analysis of the deposited data

Results flagged for a closer look

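Calm3 in control replicate 4 stood at 1.6 CPM, far from the other 3 control libraries (0.11 to 0.32 CPM). Of 18 groups of 4 libraries looked at, it was the only one with such a gap, and chance gives about 1 in 20.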

How the results depend on the processing

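Of 543 log2 fold changes under alternatives, 478 kept their sign and side of the threshold, 45 lost the threshold, 16 newly passed it and 4 turned sign (Eef2k and Atp2a2 with library totals only, Trpm7 without control replicate 1 or knockout replicate 4). Of 60 counts of genes 53 stayed within 1.5 times. With library totals only, 2382 genes were higher and 504 lower, and 13 pathway genes were higher; log2 fold changes were 4.73 for Calm2, 1.74 for Camk2g, -0.45 for Itpr1, 0.12 for Atp2a2, -0.25 for Atp2b1, 0.90 for Ppp3ca, and reversed for Eef2k (0.10). With the length trend removed, 1028 were higher and 2332 lower, 16 pathway genes were lower, and values were 3.75 for Calm2, 0.99 for Camk2g and -0.49 for Atp2a2. With at least 10 CPM required, Calm3 and Cacna1h were not tested. Leaving out 1 library gave 1012 to 1597 higher and 837 to 1244 lower genes, the fewest lower ones without knockout replicate 2, and 3.98 to 5.54 for Calm3. DESeq2 gave 1809 and 1753. Same-numbered libraries did not deviate together (correlations -0.117 to -0.0212), which cannot show whether they share a female or a batch. With a replicate block 1090 were higher and 861 lower. Setd1b (-1.46), Atp2b1 (-0.65), Iqgap2 (-0.56), Ppp3cc (3.50), Rcan3 (-0.59) and Myh9 (-0.69) were then not past the threshold. The causes were not tested. With 24 control counts, depth limits the ratio of Calm3.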
